A study of Drosophila melanogaster with 24 samples.

Results

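The comparison described here set 4 libraries of injured flies heterozygous for a deletion of Relish (+/Reldel) against 4 libraries of injured wild-type flies, 8 of the 24 libraries of the series. Libraries were chosen by the genotype and injury labels of the samples and by no measured value. RNA was taken from whole male Drosophila melanogaster aged 1 to 7 days, all on the yw background and kept at 25 °C, and the injured flies were collected 4 h after traumatic brain injury. Uninjured wild-type and +/Reldel flies, and Reldel/Reldel flies with and without injury, 4 libraries each, are used below to follow the genes found in the injured flies. The study's title asks about heterozygosity for a Rel mutation and survival after brain injury, and the comparison here asks which transcripts differed between injured flies with 1 and with 2 intact copies of Rel. The labels do not say how the Reldel chromosome was brought into the yw stock, so the deletion and the rest of the chromosome that carries it cannot be told apart in any genotype comparison.

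Relish (Rel) is the NF-κB transcription factor at the end of the immune deficiency (Imd) pathway, a main arm of innate immunity in flies. Bacterial peptidoglycan is bound by receptors such as PGRP-LC, the adaptor imd and the caspase Dredd pass the signal on, and cleaved Relish enters the nucleus and switches on genes for antimicrobial peptides, largely in the fat body. The Toll pathway, which acts through the related factors Dif and dl, drives a partly separate set of peptides that includes Drs and the Bomanins.

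Total counts of the 8 libraries compared ranged from 6543632 to 13717380. At these depths 3 counts, the fewest treated here as detection, correspond to 0.218 to 0.457 CPM (counts scaled to library size). Markers of testis and accessory gland were abundant in all 8 libraries, at a summed 7134 to 9248 CPM and 10622 to 22392 CPM. The library of injured wild type numbered 4 stood apart from the labelled sex. It held 5085 counts over the 18 yolk, chorion and other female genes that were too low to be tested elsewhere, against 5 to 56 in each of the other 23 libraries. Its chorion gene Cp15 had 1868 counts and its yolk protein gene Yp1 had 1106, and no other library exceeded 12 and 10. Counts of genes called are therefore also given without this library, and the part of these transcripts in other results was not tested. In bulk RNA, fewer cells of a type and less RNA per cell cannot be told apart.

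Rel transcripts were lower in injured heterozygotes. Rel (FBgn0014018) lies at 3R:9044183-9047977 on the minus strand of dm6, nested inside Nmdmc, a gene of folate metabolism, at 3R:9042508-9050555 on the same strand. The 4 injured wild-type libraries had 119, 152, 172 and 135 CPM of Rel, and the 4 injured heterozygous libraries had 85.2, 42.5, 68.6 and 51.2 CPM. All 4 heterozygous values lay below all 4 wild-type values. The log2 difference was -1.22 ± 0.22 (standard error, SE), with an adjusted p of 0.0113 in edgeR's quasi-likelihood test with Benjamini-Hochberg adjustment. As a share, heterozygotes had 42.8% of the wild-type Rel level, with a 95% interval of 31.2% to 58.8%, which includes 50%. The call was narrow, because the adjusted p was 0.0501 when only the 8 injured libraries were fitted and reached 0.0641 when 1 library was left out.

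Without injury Rel was 64.7, 77.6, 78.4 and 58.4 CPM in wild type and 53.8, 32.6, 25.6 and 43.3 CPM in heterozygotes. The uninjured groups did not overlap either, but the difference of -0.85 ± 0.22 did not pass the threshold (adjusted p = 0.123, edgeR). Injured homozygotes had 0 counts of Rel in 4 libraries against 5851 in injured wild type, a level at least 1991-fold lower when 3 counts are assumed over the group. The 8 genes within 20 kb of Rel, which were neur, hyx, Nmdmc, Mst85C, Kdm2, beag, Ada and pum, were not called in injured heterozygotes, and their log2 differences lay between -0.15 and 0.28. Rel and Nmdmc lie on the same strand, so strand could not tell apart reads that both genes could give, and these are uncertain. Nmdmc had 35.3 ± 8.92 CPM in injured wild type and 38.0 ± 10.9 CPM in injured homozygotes (SD, n = 4), which had 0 counts of Rel. The labels do not state whether counting used strand. Reads from a gene and its antisense partner are therefore uncertain too.

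**Figure D1:**
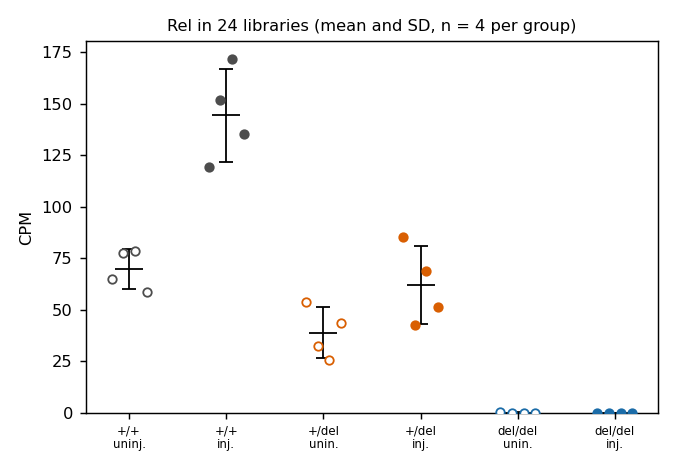
Rel in CPM (vertical axis, linear) in each of the 24 libraries, by Rel genotype and injury state; points are libraries and bars are the mean and SD of 4. The injured heterozygous points lie between 42.5 and 85.2 CPM, below every injured wild-type point, and the homozygous points lie at or near 0.

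Across all genes the difference was small. Of 13868 genes tested, 41 (0.296%) were called at an adjusted p under 0.05 in edgeR's quasi-likelihood test, 30 of them (0.216%) higher and 11 (0.0793%) lower in injured heterozygotes. The unadjusted p was under 0.05 for 820 of the 13868 genes. The median log2 difference of all genes was -0.01, with 6718 positive and 7150 negative values. Of the 41 genes, 40 had groups of libraries that did not overlap, against 3.89% of all genes tested, and CG11891 was the exception. The genes without overlap were 29 of those called higher, against 1.77% of all genes, and all 11 called lower, against 2.12%. Non-overlap was read in the libraries that gave the calls, so it is no separate support for them. A change of 2-fold or more was fitted for 29 of the 30 genes called higher and for 6 of the 11 called lower. Without injured wild-type library 4, the count was 26 genes, and it was 24 without injured heterozygous library 2. Separate cultures behind the 4 libraries of each group are not mentioned in the labels, so p-values here reflect only library-to-library spread. That spread was wider than counting error. Pairs of libraries differed by a chi-squared per degree of freedom of 9.75 to 31.3 in injured wild type and 17.7 to 46.9 in injured heterozygotes. Whether the rest of the spread was technical or came from different flies was not tested.

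Several genes were close to absent in injured wild type and clearly present in injured heterozygotes. CG3397 (3R:11983098-11984541) had 0 counts in the 4 wild-type libraries and 21.6, 11.3, 10.01 and 13.1 CPM in the heterozygous ones. That is 601 counts against 0, at least 185-fold higher when 3 counts are assumed over the wild-type group. Its neighbour CG12224 lies 1.04 kb away on the same strand. CG12224, chosen after its values were seen, had 3.804, 2.90, 5.36 and 1.89 CPM in wild type and 30.1, 8.87, 14.6 and 14.0 CPM in heterozygotes, a log2 difference of 2.33 ± 0.39 (edgeR adjusted p = 0.00372). Both genes were thus higher in every heterozygous library.

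mthl8 (3L:22428-26308), a member of the methuselah-like family of G-protein-coupled receptors, had 0.304, 0, 0 and 0 CPM in injured wild type. In injured heterozygotes it had 4.89, 5.66, 14.2 and 5.18 CPM. The ratio was 158, with a 95% Poisson interval of 43.8 to 1306 that covers counting error only, because the wild-type group held 2 counts, both in library 1. The long noncoding RNA lncRNA:CR44333 had 0 counts in wild type and 0.565 to 1.91 CPM in heterozygotes, at least 18.2-fold higher. lncRNA:CR45378 had 3 counts in wild type and 86 in heterozygotes, a ratio of 26.5 (95% Poisson interval 9.08 to 129). Each of these noncoding RNAs was above wild type in every heterozygous library, at low absolute levels.

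Among better expressed genes, Spn75F (3L:19128450-19129665), a serpin of the family of serine protease inhibitors, rose from 2.89, 2.75, 4.51 and 5.09 CPM in wild type to 94.0, 123, 161 and 107 CPM. The log2 difference was 4.98 ± 0.30 (edgeR adjusted p = 4.03e-10). HSPBAP1 (3R:27695235-27696531) rose from 3.04, 4.81, 5.21 and 6.47 CPM to 68.3, 105, 107 and 148 CPM, a log2 difference of 4.41 ± 0.41. For both genes the lowest heterozygous library lay more than 10 times above the highest wild-type library. CG18473 and nkd, chosen after their values were seen, changed less in size but with little spread. CG18473 was 11.7 to 17.6 CPM in wild type and 40.7 to 46.1 CPM in heterozygotes (log2 difference 1.61 ± 0.14), and nkd, an antagonist of Wingless signalling, was 10.9 to 12.4 and 25.9 to 34.6 CPM (1.34 ± 0.20).

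The other increases included genes of detoxification and further noncoding RNAs. Cyp6a2, a cytochrome P450 known from insecticide resistance, had 1.37, 0.153, 0.141 and 1.09 CPM in injured wild type and 22.2, 12.8, 3.95 and 12.4 CPM in injured heterozygotes. The groups did not overlap, and the log2 difference was 4.23 ± 0.87 (edgeR adjusted p = 0.0296), but the call was lost in 7 of the 8 fits that left out 1 library. Ugt302K1, a UDP-glycosyltransferase, was 0.364 to 0.611 CPM in wild type and 2.53 to 5.97 CPM in heterozygotes (3.05 ± 0.39). asRNA:CR45974 and lncRNA:CR44545 were higher by 3.62 ± 0.43 and 3.56 ± 0.59 on the log2 scale. Noncoding RNAs made up 12 of the 41 genes called, all of them higher, which is 0.925% of the 1297 tested, and 0.234% of protein-coding genes were called. The filter on low counts used all 24 libraries. In the 8 injured libraries alone lncRNA:CR43846, lncRNA:CR44333, lncRNA:CR44545, lncRNA:CR44674 and asRNA:CR46044 did not pass it. The share and the direction of the noncoding calls may thus be partly fixed by the filter. MtnB, a metallothionein that binds metal ions, and TwdlD, a Tweedle cuticle protein, were also called higher and were chosen after their values were seen. MtnB was 0.0764 to 0.609 CPM in wild type and 1.23 to 3.67 CPM in heterozygotes, and TwdlD did not exceed 0.141 and 1.19 CPM.

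Decreases were fewer and mostly moderate. Ugt35B1 (3R:11168503-11170246), another UDP-glycosyltransferase, had 192, 208, 181 and 227 CPM in injured wild type and 53.6, 79.9, 94.1 and 84.2 CPM in injured heterozygotes, a log2 difference of -1.38 ± 0.15 (edgeR adjusted p = 9.78e-06). Ugt302K1, which changed in the opposite direction, lies 14.7 kb from it on the same strand. sad, which encodes the cytochrome P450 shadow of ecdysone synthesis, had 28.6, 22.4, 14.0 and 17.97 CPM in wild type and 5.65, 10.2, 5.49 and 6.27 CPM in heterozygotes (-1.57 ± 0.30). Every heterozygous value of both genes was below every wild-type value, and the call for sad was lost in 5 of the 8 fits without 1 library.

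CG43680 was 16.8 to 22.5 CPM in wild type and 3.95 to 8.57 CPM in heterozygotes (-1.56 ± 0.23), and CG14715 was 13.5 to 18.6 and 7.81 to 8.45 CPM (-1.05 ± 0.16). CG31226, the most abundant gene called, was 565 to 676 CPM in wild type and 321 to 467 CPM in heterozygotes (-0.72 ± 0.14). GstD3, a glutathione S-transferase, fell by 0.67 ± 0.14 on the log2 scale, CG6650 by 0.63 ± 0.13 and CG14662 by 0.61 ± 0.13. None of these groups overlapped. The last 4 calls were narrow: leaving out 1 library in turn lost that of CG31226 in 6 of 8 fits, GstD3 in 4, CG6650 in 8 and CG14662 in 7, and the replicate block lost those of GstD3, CG6650 and CG14662. CG6927 had the largest fitted decrease, but it rested on 1 library: injured wild type had 0.913, 1.15, 1.55 and 8.66 CPM, the last in library 4, and heterozygotes had 0.0941 to 0.545 CPM. The log2 difference of -3.38 ± 0.74 (edgeR adjusted p = 0.0489) became -1.96 without library 4, with an adjusted p of 0.501.

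Most of these genes also differed without injury, in the same direction. The uninjured comparison uses 8 other libraries, and 69 genes (0.498%) were called there by edgeR at an adjusted p under 0.05. All 41 genes called in injured heterozygotes had the same sign in uninjured heterozygotes, for 30 genes higher and 11 lower, and 31 of them were called again. These 31 genes are 75.6% of the injured calls and 44.9% of the uninjured calls. For 37 of the 41 the uninjured libraries did not overlap, in the same direction, against 5.59% of all genes with no overlap in either direction. The share of all genes with the same sign in both comparisons was not computed. The 41 include 6 genes, listed below, that did not pass the filter on low counts in the 8 injured libraries alone. The choice may have partly fixed their direction. Spn75F differed by 4.94 ± 0.29 without injury, HSPBAP1 by 4.68 ± 0.41 and Ugt35B1 by -1.07 ± 0.15 on the log2 scale, all called. The 10 genes not called again were Rel, sad, GstD3, CG6650, CG6927, TwdlD, lncRNA:CR45191, lncRNA:CR45378, CG43449 and CG11891.

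The difference between the injured and the uninjured genotype effect was tested as an interaction. No gene was called by edgeR, where the smallest adjusted p was 1.00 and 363 genes had an unadjusted p under 0.05, and none by DESeq2, with 371. Of the 41 genes, 3 had an unadjusted p under 0.05, namely CG6927 (0.0219), lncRNA:CR45191 (0.0237) and TwdlD (0.0373). lncRNA:CR45191, chosen after its values were seen, was 0.282 to 1.22 CPM in injured wild type and 0.932 to 3.12 CPM in uninjured wild type, while both heterozygous groups lay between 2.63 and 4.36 CPM. A p that misses the threshold does not show that the effects were equal. For Spn75F the injured effect minus the uninjured effect was 0.04 ± 0.38, for Rel it was -0.38 ± 0.31 and for sad -0.84 ± 0.42 on the log2 scale.

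**Figure D2:**
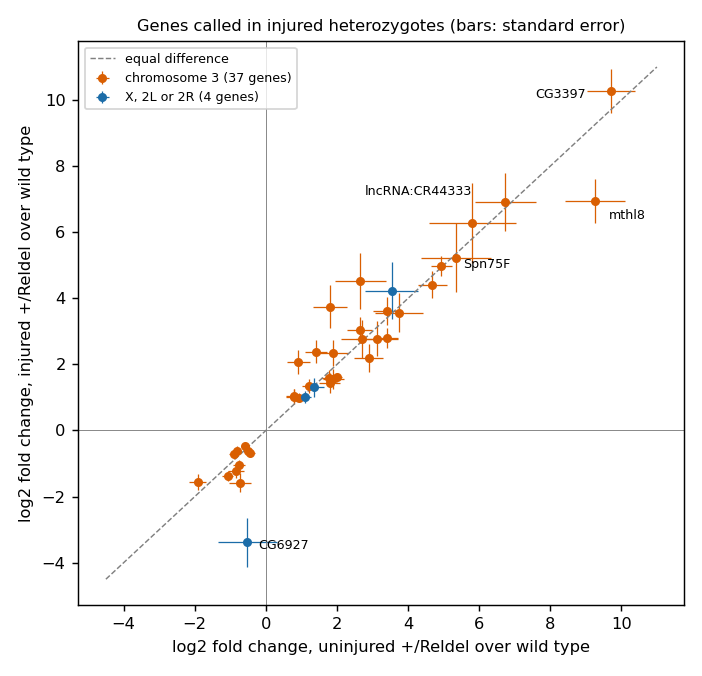
Fitted log2 fold change of +/Reldel over wild type in uninjured flies (horizontal axis) and injured flies (vertical axis) for the 41 genes called after injury; bars are standard errors, the dashed line marks equal differences and colour separates chromosome 3 from the other chromosomes. All 41 points lie in the upper right or lower left, and CG6927 lies far from the line; fitted values of genes with 0 counts in wild type, such as CG3397, depend on the prior count of the fit.

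In uninjured flies, nearly all of these genes had a heterozygous level between those of wild type and of Reldel/Reldel homozygotes. The heterozygous mean in uninjured flies lay between the wild-type and homozygous means for 40 of the 41 genes, all but CG6927, and for 31.7% of all genes tested. The uninjured and homozygous libraries entered the choice of these genes through the shared estimate of spread and through the filter on low counts, which used all 24 libraries. In the 8 injured libraries alone 6 of the 41, which were TwdlD, lncRNA:CR43846, lncRNA:CR44333, lncRNA:CR44545, lncRNA:CR44674 and asRNA:CR46044, did not pass that filter, so the choice may have partly fixed their position. Of the other 35 genes, 34 lay in between, against 31.2% of the 13307 genes that passed in those 8 libraries, and 26 of the 35 were called without injury. Over these 35 genes the heterozygous mean lay at a median of 47.3% of the way from the wild-type to the homozygous mean. With the 6 others included, the median over all 41 was 46.4% (quartiles 41.5% and 55.4%).

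HSPBAP1 had 5.23 ± 0.83, 135 ± 77.0 and 249 ± 67.0 CPM in uninjured wild type, heterozygotes and homozygotes (SD, n = 4). CG18473 had 9.72 ± 1.49, 38.8 ± 5.53 and 79.8 ± 5.05 CPM in that order. Ugt35B1 went the other way, with 251 ± 29.5, 120 ± 11.5 and 1.58 ± 0.26 CPM. CG43680 had 27.7 ± 4.38 and 7.35 ± 2.46 CPM in the first 2 groups and 0 counts in every homozygous library, injured or not. The injured homozygotes share their wild-type libraries with the comparison above, so their values are only set beside it, and edgeR called 594 genes (4.28%) there. After injury Spn75F had 3.81 ± 1.17, 121 ± 29.0 and 193 ± 87.1 CPM in wild type, heterozygotes and homozygotes. sad had 20.7 ± 6.28, 6.90 ± 2.23 and 0.938 ± 0.532 CPM, and CG3397 had 0 counts, 14.0 ± 5.25 CPM and 33.5 ± 7.17 CPM.

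**Figure D3:**
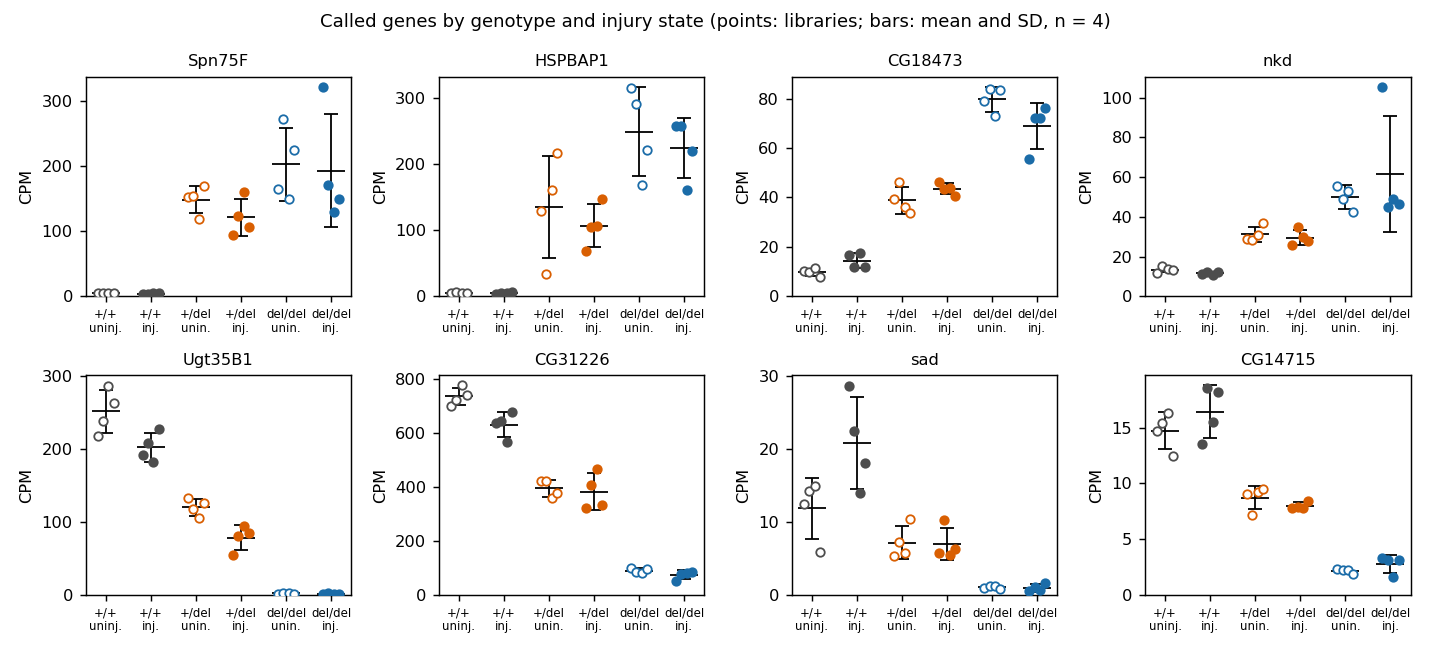
CPM (vertical axes, linear, separate scale per gene) of Spn75F, HSPBAP1, CG18473, nkd, Ugt35B1, CG31226, sad and CG14715 in the 6 groups of genotype and injury; points are libraries and bars are the mean and SD of 4. Group means of the first 4 genes are higher and of the last 4 lower with each Reldel copy, with heterozygotes in between in both injury states.

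The genes called were concentrated on chromosome 3, which carries Rel on its right arm. Chromosome 3 held 37 of the 41 genes called (90.2%) and 44.1% of the genes tested. Of its 6121 genes tested 0.604% were called, and of the 7671 on the other chromosomes 0.0521%. Both arms took part, with 14 of 2679 genes called on 3L (0.523%) and 23 of 3442 on 3R (0.668%). The 4 genes elsewhere were CG6927 on X, CG17264 on 2L, and Cyp6a2 and CG42260 on 2R. In uninjured heterozygotes chromosome 3 held 58 of the 69 genes called (0.948% of its genes), against 11 elsewhere (0.143%). Without injured wild-type library 4 it held 25 of the 26 injured calls.

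On 3R, 10 of the 23 genes called lay within 3 Mb of Rel, which is 1.29% of the 774 genes tested there, and the other 13 are 0.487% of the 2668 genes farther away. That difference was not tested. Within 1 Mb of Rel 2 of 286 genes tested were called, Rel and CG18473, or 0.699%. From 1 to 3 Mb it was 8 of 488 (1.64%), a stretch that holds lncRNA:CR44333, CG43449, Ugt302K1, Ugt35B1, CG14715, sad, CG12224 and CG3397. From 3 to 5 Mb it was 2 of 506 (0.395%), from 5 to 10 Mb 3 of 587 (0.511%), and from 10 to 30 Mb 8 of 1575 (0.508%). HSPBAP1 lies 18.6 Mb from Rel, and mthl8 lies at the far end of the other arm. Called genes next to each other within 100 kb formed 6 pairs. Besides CG12224 with CG3397 and Ugt302K1 with Ugt35B1, these were lncRNA:CR43306 with asRNA:CR45974 (7.63 kb apart), CG43449 with Ugt302K1 (61.7 kb), nkd with Spn75F (83.0 kb) and MtnB with asRNA:CR46044 (84.3 kb).

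**Figure D4:**
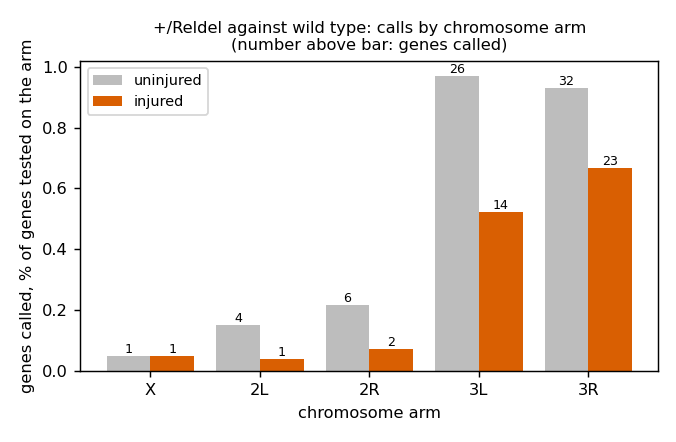
Genes called in +/Reldel against wild type as a percentage of the genes tested on each chromosome arm (vertical axis, from 0), for uninjured (grey) and injured (orange) flies; the number above each bar is the count of genes called. The bars of 3L and 3R, with 14 and 23 genes after injury, stand above those of X, 2L and 2R, with 1, 1 and 2.

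Antimicrobial peptide genes, the best known targets of Relish, were not called in injured heterozygotes. Of the 14 tested, 0 were called by edgeR, 2 had an unadjusted p under 0.05, and the DESeq2 alternative called Def. The median log2 difference was -0.27, against -0.01 for all genes, with 10 negative and 4 positive values. Def, the gene of the peptide Defensin, which acts mainly on Gram-positive bacteria, had 13.2, 19.8, 21.3 and 17.97 CPM in wild type and 7.15, 8.42, 3.95 and 1.498 CPM in heterozygotes. It was the only 1 of the 14 antimicrobial peptide genes whose groups did not overlap, against 2.12% of all genes without overlap and lower. Its log2 difference was -1.75 ± 0.43, with an adjusted p of 0.107 in edgeR and 0.04998 in DESeq2, and from 0.0943 to 0.343 when 1 library was left out. Without injury Def differed by -1.78 ± 0.51 (adjusted p = 0.174).

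CecB, a cecropin, had 3.65, 10.1, 6.76 and 3.27 CPM in wild type and 3.58, 0.745, 2.18 and 2.04 CPM in heterozygotes, a log2 difference of -1.49 ± 0.47 (edgeR adjusted p = 0.355). DptA, a diptericin and a standard readout of Imd signalling, had 46.9, 70.4, 97.8 and 29.5 CPM in wild type and 123, 16.3, 114 and 13.1 CPM in heterozygotes. Heterozygous libraries 1 and 3 lay above all wild-type libraries and libraries 2 and 4 below them. The difference was 0.14 ± 0.61, with a 95% interval of -1.12 to 1.39. AttA differed by 0.06 ± 0.58, Mtk by -0.02 ± 0.45 and Drs by -0.58 ± 0.39.

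The spread of DptA recurred in the sum over the 14 genes, which was 607, 880, 1007 and 499 CPM in wild type and 1129, 373, 846 and 256 CPM in heterozygotes. The highest and the 2 lowest sums were heterozygous, so the groups overlapped on both sides. The 95% interval of 12 of the 14 genes included a 2-fold change, and only those of 2 genes lay within 2-fold both ways. Changes of that size were not detectable for most of these genes with 4 libraries a group. In injured homozygotes, set against the same wild-type libraries, 10 of the 14 were called lower, against 326 of all 13868 genes tested. Def was at -7.39 ± 0.72, DptA at -6.62 ± 0.92 and CecB at -4.58 ± 0.62.

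**Figure D5:**
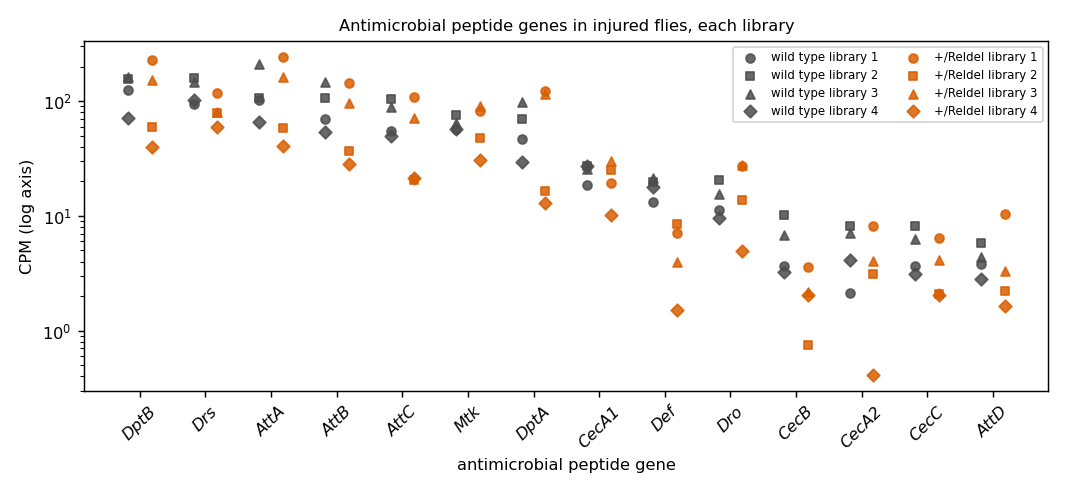
CPM (vertical axis, logarithmic) of the 14 antimicrobial peptide genes tested in each of the 4 injured wild-type (grey) and 4 injured +/Reldel (orange) libraries, with a symbol per library number. Orange circles and triangles (libraries 1 and 3) lie above orange squares and diamonds (libraries 2 and 4) for most genes, and for Def the orange points lie below the grey ones.

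Of the other immune lists, only that of the Imd pathway held a gene called, which was Rel. Among 21 Bomanins and other Toll peptides tested, 0 were called by edgeR (3 at an unadjusted p under 0.05, 0 called by DESeq2) and the median log2 difference was -0.23. CG15067 had 139, 203, 205 and 118 CPM in wild type and 107, 89.9, 76.2 and 57.8 CPM in heterozygotes, and CG16836 had 43.0 to 62.5 and 27.5 to 41.3 CPM. These were the 2 of the 21 list members whose groups did not overlap, both lower, against 2.12% of all genes without overlap and lower. Neither was called (edgeR adjusted p = 0.542 and 0.717). The 95% interval stayed within 2-fold both ways for 9 of the 21. The Bomanin genes IM1 and IM3 differed by -0.50 ± 0.39 and -0.49 ± 0.37.

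Of 26 genes of the Imd pathway, 1 was called, Rel. The other 25 lay between -0.57 and 0.26 on the log2 scale, and for 21 of them the 95% interval stayed within 2-fold both ways. The receptor gene PGRP-LC differed by -0.18 ± 0.16, the adaptor imd by 0.18 ± 0.11 and pirk, which encodes an inhibitor of the pathway, by -0.57 ± 0.29. Of 22 Toll pathway genes 0 were called by edgeR, 0 had an unadjusted p under 0.05, DESeq2 called 0, and the interval of 20 stayed within 2-fold.

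Among lists for other processes, detoxification held calls. Cyp6a2 was called higher and GstD3 lower of 33 tested, or 6.06% against 0.296% of all genes. That share rests on 2 narrow calls in opposite directions. Both were lost with the replicate block, and in 7 (Cyp6a2) and 4 (GstD3) of the 8 fits that left out 1 library. Of the 37 names on that list 34 matched a gene, and Ugt35b, Ugt86Da and Ugt86Dd did not. Ugt35B1, called lower, and Ugt302K1, called higher, are therefore outside these counts, which do not cover all detoxification genes called. The groups did not overlap, with heterozygotes higher, for 5 of the 33 (15.2%), against 1.77% of all genes. No member was called of 17 JAK-STAT and Turandot genes, 22 of JNK, wound and death, 20 of autophagy, 20 of heat shock, 24 of insulin and fasting, 12 of the mitochondrial genome or 40 ribosomal proteins. Of these 155 genes, 2 had an unadjusted p under 0.05 in edgeR, against 820 of all 13868 genes, and DESeq2 called 0. No member was called either of 36 digestive enzymes (4 at an unadjusted p under 0.05, 0 called by DESeq2). Their median log2 difference was 0.66, with 29 positive and 7 negative values, and 0.67 without injury. Summed CPM of these genes overlapped after injury, at 1095 to 4173 in wild type and 2398 to 5914 in heterozygotes. It overlapped without injury too, at 485 to 2400 and 1251 to 5886. Genes of this list may vary together, so the signs are not independent. gammaTry, a trypsin of the gut, had 0, 0, 2.396 and 0.873 CPM in injured wild type and 5.65, 4.92, 3.15 and 10.5 CPM in injured heterozygotes, without overlap, and was not called (2.96 ± 1.08, edgeR adjusted p = 0.565). It was the only 1 of the 36 digestive enzyme genes whose groups did not overlap, against 1.77% of all genes without overlap and higher.

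No tissue marker was called. The lists held 21 neuron, 13 glia, 26 eye, 25 muscle, 20 hemocyte, 8 fat body, 30 testis and 24 accessory gland genes tested, and their medians lay between -0.06 and 0.22 on the log2 scale. Of these 167 genes, 10 had an unadjusted p under 0.05 in edgeR, close to the share of all genes (820 of 13868), and DESeq2 called 0. The groups did not overlap for Lsp2, a larval storage protein of the fat body, which was 3.96 to 12.8 CPM in wild type and 1.45 to 3.06 CPM in heterozygotes (-1.67 ± 0.62, edgeR adjusted p = 0.587). Nor did they for the germline helicase gene vas (-0.999 ± 0.275, edgeR adjusted p = 0.205). vas had 5.33, 4.73, 4.51 and 10.3 CPM in wild type and 2.16 to 4.14 CPM in heterozygotes. Its highest value was thus in wild-type library 4, which held the yolk and chorion transcripts. Non-overlap with heterozygotes lower was found for 1 of 8 fat body and 1 of 30 testis genes, against 2.12% of all genes. The related storage proteins Lsp1gamma and Lsp1beta differed by -0.92 ± 0.50 and 0.87 ± 0.55. Of the 25 muscle genes 22 had a positive log2 difference, and Act88F, the actin of flight muscle, differed by 0.94 ± 0.43 (edgeR adjusted p = 0.782). The muscle median was 0.22 after injury and -0.18 without it. Summed CPM of the muscle genes overlapped after injury, at 15349.2 to 17284.4 in wild type and 14638.2 to 21728.5 in heterozygotes. The 11 female and ovary genes that were tested had a median of -0.52 and 0 calls by edgeR or DESeq2, with 2 at an unadjusted p under 0.05. The thioredoxin gene dhd, active in the ovary and chosen after its values were seen, had 1.37, 2.67, 3.1003 and 88.4 CPM in injured wild type and 1.29 to 2.46 CPM in injured heterozygotes, so that the difference came with library 4.

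At the transcript level 27 of 26667 transcripts were called by edgeR (0.101%), 22 higher and 5 lower, and 26 of them lie on chromosome 3. Genes already called accounted for 19, and 8 belonged to genes that were not called. All 27 had groups that did not overlap, and 26 had the same sign without injury, 18 of them called there. Non-overlap in the libraries that gave the calls is no separate support. Shares over all transcripts were not computed for non-overlap, for chromosome 3 or for calls without injury. The clearest shift within a gene was in CG10550, chosen after its values were seen. Its transcript FBtr0084857 had 0, 0, 0 and 9.59 CPM in injured wild type and 99.9, 80.5, 80.7 and 106 CPM in injured heterozygotes. FBtr0305953 had 83.1, 93.5, 81.4 and 100 CPM in wild type and 0, 4.39, 11.6 and 10.5 CPM in heterozygotes.

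The 2 transcripts of CG10550 therefore went in opposite directions, by 5.11 ± 0.89 and -3.77 ± 0.71, while the gene as a whole differed by -0.17 ± 0.15. Without injury FBtr0084857 of CG10550 had 43.0, 21.0, 35.0 and 13.3 CPM in wild type and 88.6, 73.1, 71.4 and 117 CPM in heterozygotes, so wild type was not near 0 there. Its difference without injury was 1.65 ± 0.75 (edgeR adjusted p = 0.824) and that of FBtr0305953 was -2.22 ± 0.66 (adjusted p = 0.448), and neither was called. Of CG42798, FBtr0332163 had 0 counts in wild type and 1.70, 3.13, 5.86 and 1.90 CPM in heterozygotes. CkIIalpha, also chosen after its values were seen, held the transcript whose sign was opposite without injury, FBtr0345138, which had 0 counts in injured wild type, 5.73 to 15.5 CPM in injured heterozygotes and 8.37 to 16.8 CPM in uninjured wild type. None of the 3 Rel transcripts was called on its own, and FBtr0089341, the most abundant, differed by -1.21 ± 0.27 (adjusted p = 0.173). RSEM divides reads between transcripts that share exons, so values of individual transcripts are less certain than those of genes.

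The authors' deposited table for the same 8 libraries lists 13488 genes, of which 101 (0.749%) have a false discovery rate under 0.05, 61 higher and 40 lower in heterozygotes. The genes called by both number 38, all with the same sign, which is 37.6% of the deposited calls and 92.7% of the 41. Of the 101 genes in the authors' deposited table, 78 lie on chromosome 3. That table also calls Def, at a log2 difference of -1.74 (false discovery rate 0.0003085), and does not call CecB (0.1131). Among other genes described above as not called, the authors' deposited table calls CG15067 (false discovery rate 0.001000), CG16836 (0.002076), Lsp2 (0.003782), gammaTry (0.003996) and dhd (0.01470).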

How the data were processed

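Per the labels' protocols, 24 Illumina TruSeq libraries were built, each from 1 µg of whole-fly RNA. The authors deposited RSEM expected counts per gene and per transcript, and tables of their own comparisons with log2 fold changes, a likelihood-ratio score and p-values. The submitters' processing notes name edgeR 3.10.5, RSEM 1.2.22, STAR 2.4.2a and CASAVA, with build dm6; the annotation is not given in the sources used here. The expected counts as deposited were whole numbers (0 values were not), and 0 columns belonged to other samples. Coordinates come from Ensembl release 115 in dm6 coordinates, counted from 1, which held 17671 of the 17768 genes. Symbols are those of the deposited files.

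The main test was edgeR's quasi-likelihood F-test (version 4.0.16, R 4.3.3) on gene counts, with TMM scaling, filterByExpr and 1 mean per group over all 24 libraries (18 residual degrees of freedom), two-sided, adjusted over the 13868 genes kept. Transcripts were treated alike. SE is the size of the log2 difference over the square root of F, and CPM uses the effective library size. Bounds assume 3 counts over a group at 0, and ratios to groups of 1 to 3 counts carry an exact Poisson interval; PCR copies are not independent molecules, so both cover counting error only. The fit was tested on simulated data.

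The genes named were Rel, the 10 largest increases and 10 largest decreases among called genes whose groups did not overlap and whose higher group reached 1 CPM, since more than 40 genes were called, and members of 23 gene lists; of transcripts, those of Rel and the 5 called with the smallest p in each direction. Other genes whose values are given in a comparison are said to be chosen after their values were seen, and the rest are only listed by name. The comparison, members and lists were chosen with earlier results of these data known. Alternatives were other size factors, no filter, DESeq2 1.42.0, only the libraries compared, the replicate number as a block, and each library left out. Same-numbered libraries were not paired: deviations of injured wild-type and heterozygous libraries with the same number correlated at 0.04, -0.03, -0.27 and -0.14.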

Additional observations from a re-analysis of the deposited data

Results flagged for a closer look

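Of 319 sets of 4 libraries examined for called genes and immune genes, 17 held a library far from the other 3, where chance flags about 1 in 20. The number flagged was close to that share, so no single flag is a result by itself. Among genes called after injury, the values of such libraries in CPM were as follows. Injured wild type had mthl8 at 0.304 in library 1, with 0 in the other libraries, and CG6927 at 8.66 in library 4, with at most 1.55 in the others. Injured heterozygotes had mthl8 at 14.2 in library 3, CG14715 at 8.45 in library 4 and sad at 10.2 in library 2, each the highest of its group. The other CG14715 values were 7.81 to 7.90, so that gap was small.

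Uninjured wild type had lncRNA:CR44545 at 0 in library 1 and asRNA:CR45885 at 0.772 in library 3, both the lowest, and TwdlD at 0.388 in library 4 and Cyp6a2 at 3.95 in library 2, both the highest. For lncRNA:CR44545 uninjured wild-type libraries 2, 3 and 4 had 1 count each, below the level treated here as detection. Uninjured heterozygotes had lncRNA:CR44333 at 0.697 in library 1, the lowest.

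Immune genes that were not called gave the remaining 7. Injured wild type had GNBP3 at 37.9 in library 2, and pirk at 26.4 and pll at 16.8 in library 3, all the highest. Injured heterozygotes had GNBP3 at 35.9 and SPE at 63.8 in library 1, both the highest, Drsl5 at 19.3 in library 1 and Pli at 41.5 in library 4, both the lowest. GNBP3 and SPE act upstream of Toll, and pll is a kinase of that pathway.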

How the results depend on the processing

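Against 41 genes called after injury, other size factors gave 45, no filter 44, the replicate block 30 (all among the 41), DESeq2 72 (including all 41, 50 higher and 22 lower), the 8 libraries alone 21, and leaving out 1 library 24 to 39. Each of 21 of the 41 genes was called in all 8 fits that left out 1 library. Rel was -1.22 and no longer called with the 8 libraries alone (adjusted p = 0.0501), and -1.42 to -1.08 without 1 library, with the call lost without injured wild-type library 3 or injured heterozygous library 2 or 4. Uninjured calls were 69, with 141 by DESeq2, 33 from the libraries compared alone and 33 to 150 without 1 library, the highest without uninjured heterozygous library 3. Injured homozygotes gave 594, or 284 from the libraries compared alone and 433 to 739 without 1 library. The interaction gave 0 in all 21 alternatives. Transcripts called were 27, or 4 from the libraries compared alone and 15 to 25 without 1 library, with 15 without injured wild-type library 1 or 4. Called genes on chromosome 3 were 37, or 59 by DESeq2, 18 from the 8 libraries alone and 23 to 34 without 1 library. Signs of uncalled peptide genes were not stable: with the replicate block DptA became -0.34, AttA -0.20 and AttD -0.31. Without 1 library DptA ranged from -0.34 to 0.49, DptB from -0.61 to 0.20, AttA from -0.46 to 0.49, AttB from -0.81 to 0.0025, AttD from -0.79 to 0.34, CecA1 from -0.44 to 0.0083 and Mtk from -0.25 to 0.22. With the 8 libraries alone 6 of the 41 genes did not pass the filter, 18 of the other 35 were called and 17 were not. No called gene changed sign in an alternative that tested it. The cause of these shifts was not tested, except that smaller fits hold fewer libraries.

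The numbers in the labels are not shown to pair libraries, and none of the 4 injured wild-type libraries correlated best with the heterozygous library of its own number; the replicate block changed the count of uninjured calls to 50 and of homozygous calls to 527. Depth limits genes near 3 counts a library, such as lncRNA:CR44674 and lncRNA:CR43846.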

Other observations

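IMPPP, a gene for immune-induced peptides listed with the Toll peptides, was too low to be tested but stood out in a few libraries. It had 807 counts in injured heterozygous library 2 and 1568 in injured homozygous library 4, and 0 to 2 counts in each of the other 22 libraries. CG33470, a near-identical copy in the same list, had 750 to 16274 counts a library, and the division of reads between the copies is uncertain. Of the 38 genes called in uninjured heterozygotes and not in injured ones, 36 had the same sign after injury. An unadjusted edgeR p under 0.05 was found after injury for 28 of the 38, against 820 of all 13868 genes tested. CG43673 on X, chosen after its values were seen, was 33.8 and 75.9 CPM in uninjured wild type and heterozygotes and 30.4 and 47.8 CPM in the injured groups, a log2 difference of 1.17 ± 0.17 without injury and 0.65 ± 0.17 after it. Smvt, also chosen after its values were seen, differed by 0.98 ± 0.18 without injury and by -0.07 ± 0.17 after it.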
